A study of Mus musculus with 369 samples.

Results

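The genes described here are 37 genes of glycolysis and of the cellular response to low oxygen, out of 23337 genes in the count table of single microglia from wild-type and Trem2 knockout mouse brains. They were listed by symbol for their known roles. The rule itself uses no measured value, but the list was written with earlier results of these data known, so it is not independent of them. They comprise 1 glucose transporter (Slc2a1), 17 glycolytic enzymes, 2 lactate transporters, 3 regulators of flux, 11 oxygen-response genes and 3 genes of glycogen turnover, and all 37 symbols were in the table. Of these, 33 were measured, meaning a mean level of 5 CPM or more over the 4 groups of cells, where CPM is counts scaled to the same total of gene counts in every group. The other 4, Pfkm, Eno2, Ndrg1 and Vegfa, stayed below that level, and Aldoc and Egln1 passed it only through the group where each was highest.

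Glycolysis splits glucose into pyruvate in the cytosol, and lactate dehydrogenase then turns pyruvate into lactate, which leaves the cell through monocarboxylate transporters. When oxygen is short, the prolyl hydroxylases of the Egln family no longer mark the transcription factor subunit Hif1a for destruction, and Hif1a with its partner raises the transcription of many glycolytic genes and of genes such as Bnip3 and Ankrd37. Macrophages, microglia among them, are also known to raise glycolysis on activation with oxygen present, and the RNA of Hif1a does not show how much of its protein is stable.

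Single microglia, the resident macrophages of the brain, were sorted from male C57BL/6J mice at postnatal day 7 and profiled with Smart-seq2, in which full-length cDNA of each sorted cell is amplified in its own well and no molecular identifiers are added. Each genotype, wild type or Trem2 knockout, was sorted through a pair of gates. Unselected cells were CD45 low and CD11b positive, and gated cells additionally carried Gpnmb and Clec7a at the surface. After the quality criteria of the labels, 78 unselected and 90 gated cells of wild-type mice and 90 unselected and 76 gated cells of knockout mice remained, 334 in all. Trem2 is a lipid-sensing receptor of microglia, and the sources used here give neither the design of its knockout allele nor the number of animals. Each group came from 1 plate and counts as 1 sample, so groups were not tested against each other and every difference below lacks a check by replicates. Effects of the plate and those of genotype or gate cannot be told apart.

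Where 4 values follow each other, they stand for wild type without the gate, wild type with it, knockout without it and knockout with it, in that order. Levels are CPM of the counts summed over the cells of a plate, with exact 95% Poisson intervals that cover counting error only, since amplified reads are not independent molecules. Gene counts per cell ranged from 157653 to 1051282. The median of detected genes per cell was 2608 without and 3162 with the gate in wild-type mice, and 2184 without and 3995 with it in knockout mice, and gene counts per spike-in count followed the same order (24.9, 39.8, 18.1 and 53.7). Trem2 was at 1115 and 1604 CPM in the wild-type plates and at 229 and 413 CPM in the knockout plates, while Gpnmb and Clec7a, the genes of the gate, were higher in both gated plates. All 9 microglia markers were present in every group, and their sums were lower with the gate, at 31915 against 46529 CPM in the wild type and 23889 against 46503 CPM in the knockout. In the knockout, 6 of the 9 were at least 2-fold lower with the gate (median log2 -1.16), and in the wild type 3 of the 9 (median -0.52). Their part in the differences of the members was not tested. Of 10 markers of border-associated macrophages, 9 were at least 2-fold higher with the gate in either genotype. Their sums were 843 and 2108 CPM in wild-type unselected and gated cells and 902 and 2089 CPM in the knockout. Cd163, Lyve1, F13a1 and Cd209f of that list were at 0 in wild-type unselected cells, and F13a1 and Cd209f at 0 in knockout unselected cells. Lymphocyte markers summed to at most 0.668 CPM in any group, those of pericytes and fibroblasts to 2.67 CPM, those of neutrophils to 3.07 CPM, those of neurons to 5.34 CPM and those of monocytes to 9.98 CPM. Markers of the oligodendrocyte lineage summed to 5.90 to 25.2 CPM, those of astrocytes to 25.2 to 49.8 CPM and those of endothelium to 2.77 to 36.2 CPM. Early response genes, which dissociation can raise, summed to 456, 347, 434 and 249.5 CPM, and red blood cell genes to 115, 404, 0.826 and 4.55 CPM, in the order of groups used above.

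Upstream sequences are shown for 5 members chosen by their calls in the comparisons. Egln3, Slc16a3 and Aldoc are the 3 members that were at least 2-fold higher with the gate in both genotypes, and P4ha1 and Mxi1 are oxygen-response members that were within 2-fold in every comparison. Each run is the 250 bases before the most upstream RefSeq start of the gene (GRCm38.p6, the mm10 build), 5′ to 3′ on the strand of the gene. Capitals mark the core letters of the hypoxia response element, ACGTG or GCGTG, on either strand, so that they also show as CACGT and CACGC. The palindrome CACGTG, the E-box core bound by other factors, holds ACGTG on both strands. The windows are chr12:54203875-54204124 on the minus strand for Egln3, chr11:120948817-120949066 on the plus strand for Slc16a3, chr11:78322823-78323072 on the plus strand for Aldoc, chr10:59323046-59323295 on the plus strand for P4ha1 and chr19:53310256-53310505 on the plus strand for Mxi1.
Egln3: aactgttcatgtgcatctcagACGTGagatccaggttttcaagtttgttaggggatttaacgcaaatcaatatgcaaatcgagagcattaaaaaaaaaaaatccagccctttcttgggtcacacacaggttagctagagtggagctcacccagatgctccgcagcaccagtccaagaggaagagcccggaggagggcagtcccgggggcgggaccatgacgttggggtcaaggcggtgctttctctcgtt
Slc16a3: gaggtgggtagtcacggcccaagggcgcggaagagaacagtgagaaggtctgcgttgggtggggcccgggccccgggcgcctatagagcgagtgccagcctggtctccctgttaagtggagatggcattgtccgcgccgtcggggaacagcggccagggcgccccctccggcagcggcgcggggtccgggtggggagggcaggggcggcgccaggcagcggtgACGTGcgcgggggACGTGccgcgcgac
Aldoc: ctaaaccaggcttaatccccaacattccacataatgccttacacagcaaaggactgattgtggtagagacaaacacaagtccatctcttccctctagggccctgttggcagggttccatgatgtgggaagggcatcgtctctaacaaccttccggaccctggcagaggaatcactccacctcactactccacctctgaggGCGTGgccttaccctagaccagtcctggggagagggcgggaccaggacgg
P4ha1: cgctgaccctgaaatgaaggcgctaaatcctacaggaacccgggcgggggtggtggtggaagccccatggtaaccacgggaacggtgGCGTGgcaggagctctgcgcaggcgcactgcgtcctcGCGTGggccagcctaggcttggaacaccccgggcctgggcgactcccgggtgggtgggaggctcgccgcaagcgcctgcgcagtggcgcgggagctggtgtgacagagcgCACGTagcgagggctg
Mxi1: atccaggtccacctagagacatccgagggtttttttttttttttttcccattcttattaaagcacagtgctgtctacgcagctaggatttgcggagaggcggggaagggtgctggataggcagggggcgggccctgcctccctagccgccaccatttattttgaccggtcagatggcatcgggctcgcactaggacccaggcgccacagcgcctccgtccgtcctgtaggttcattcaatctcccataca

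Egln3 and Aldoc hold 1 core each in this window, Slc16a3 holds 2 and P4ha1 holds 3, while Mxi1 holds 0 at this start and 1 at each of its other 2 starts. Cores were thus found both in members that differed with the gate and in members that did not. RefSeq windows of 300 bases (250 before and 50 after a start) were matched for 35 of the 37 members, with 50 starts in all. Either core was in 80% of these windows, against 43.8% of 32851 windows of all genes. ACGTG was in 58% against 19.6%, and GCGTG in 56% against 32.4%. By role, either core was in 77.8% of the 27 windows of glycolytic enzymes and in 83.3% of the 12 windows of oxygen-response genes, and CACGTG was in 12% of the members' windows against 7.15% of all. The enzymes without either core in any matched window were Gpi1, Tpi1 and Eno2. Genes with several starts count several times in these shares, and the windows of all genes were not matched to those of members in base composition. Some members were listed for their known response to low oxygen, so the shares are no independent result. A match describes the letters only and is no evidence that a factor binds there.

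Knockout gated cells had the highest levels of most enzymes between glucose 6-phosphate and lactate, and wild-type gated cells mostly had the next highest. A member was counted as higher or lower when its summed level differed 2-fold or more on the scale of CPM + 1 and its mean CPM per cell differed in the same direction, a criterion of size only. With the gate in knockout cells, 21 of the 33 measured members were at least 2-fold higher, against 10.5% of the 9340 measured genes. There 1 member was lower, against 20.3%. With the gate in wild-type cells, 4 were higher, against 12.8% of genes, and 3 were lower, against 18.8%. Between genotypes in gated cells, 8 members were higher in the knockout, against 9.69%, and 1 was lower, against 10.3%. In unselected cells 0 members were higher in the knockout, against 13.9%, and 6 were lower, against 11.5%. Aldoc and Egln1 passed the level filter only through wild-type gated and wild-type unselected cells, respectively, which favoured some of these calls. With the gate in wild-type cells, Aldoc is among the 4 higher and Egln1 among the 3 lower. Aldoc is also the member lower in the knockout in gated cells, and Egln1 is among the 6 lower in unselected cells.

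The median log2 difference of the 33 measured members was 1.30 for the gate in knockout cells and 0.38 for the gate in wild-type cells. All measured genes had medians of -0.27 and -0.15 there. The members' median was 0.69 between genotypes in gated cells and -0.03 in unselected cells, with all-gene medians of -0.00 and 0.06. Because knockout gated cells also had more detected genes, the comparison was repeated in cells matched on them, in 1 random draw. Whole knockout plates had medians of 3447 detected genes with and 1956 without the gate after thinning. The matched knockout cells were thus not typical of either plate. With 28 cells a group, at medians of 2890 and 2916 detected genes after thinning, 7 members were at least 2-fold higher with the gate in knockout cells, and 6 of them were among the 21. These 6 were Gpi1, Gapdh, Pgk1, Slc16a3, Egln3 and Ankrd37. With 32 members measured there, 4 were lower. In those cells 16.1% of all measured genes were higher and 26.8% lower, so that the share of members called higher stood closer to that of all genes than in whole plates. The matched count of higher members between genotypes in gated cells was 1, Bnip3, with 47 cells a group, against 13.4% of all genes. With the gate in wild-type cells the matched counts were 5 higher, all 4 of the whole plates among them, and 3 lower, against 16.06% and 21.7% of all genes. In unselected cells 0 were higher and 4 lower in the knockout, against 17.5% and 14.5%. Without the 1, 9, 6 and 13 cells that carried border macrophage markers (same order of groups), 21 members were higher and 1 lower with the gate in the knockout, where 10.5% and 21.7% of all genes were. The counts were 6 and 4 with the gate in the wild type (12.6% and 20.1% of all genes), 9 and 1 between genotypes in gated cells (10.7% and 10.4%), and 1 and 6 in unselected cells (14.4% and 12.14%). Trimmed-mean (TMM) factors moved the wild-type gate counts to 8 higher and 3 lower and moved the split of all genes from 12.8% higher and 18.8% lower to 15.8% and 15.1%. In the knockout gate TMM factors moved the split of all genes from 10.5% higher and 20.3% lower to 14.6% and 13.8%. Scaling to spike-ins moved the median of all genes for the gate to 0.31 in wild-type and 1.04 in knockout cells, with 22.5% higher and 10.7% lower, and 51.6% higher and 2.93% lower. Between genotypes it moved that median to 0.37 in gated cells (18.5% higher and 5.88% lower) and to -0.41 in unselected cells (7.74% and 21.5%).

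**Figure D1:**
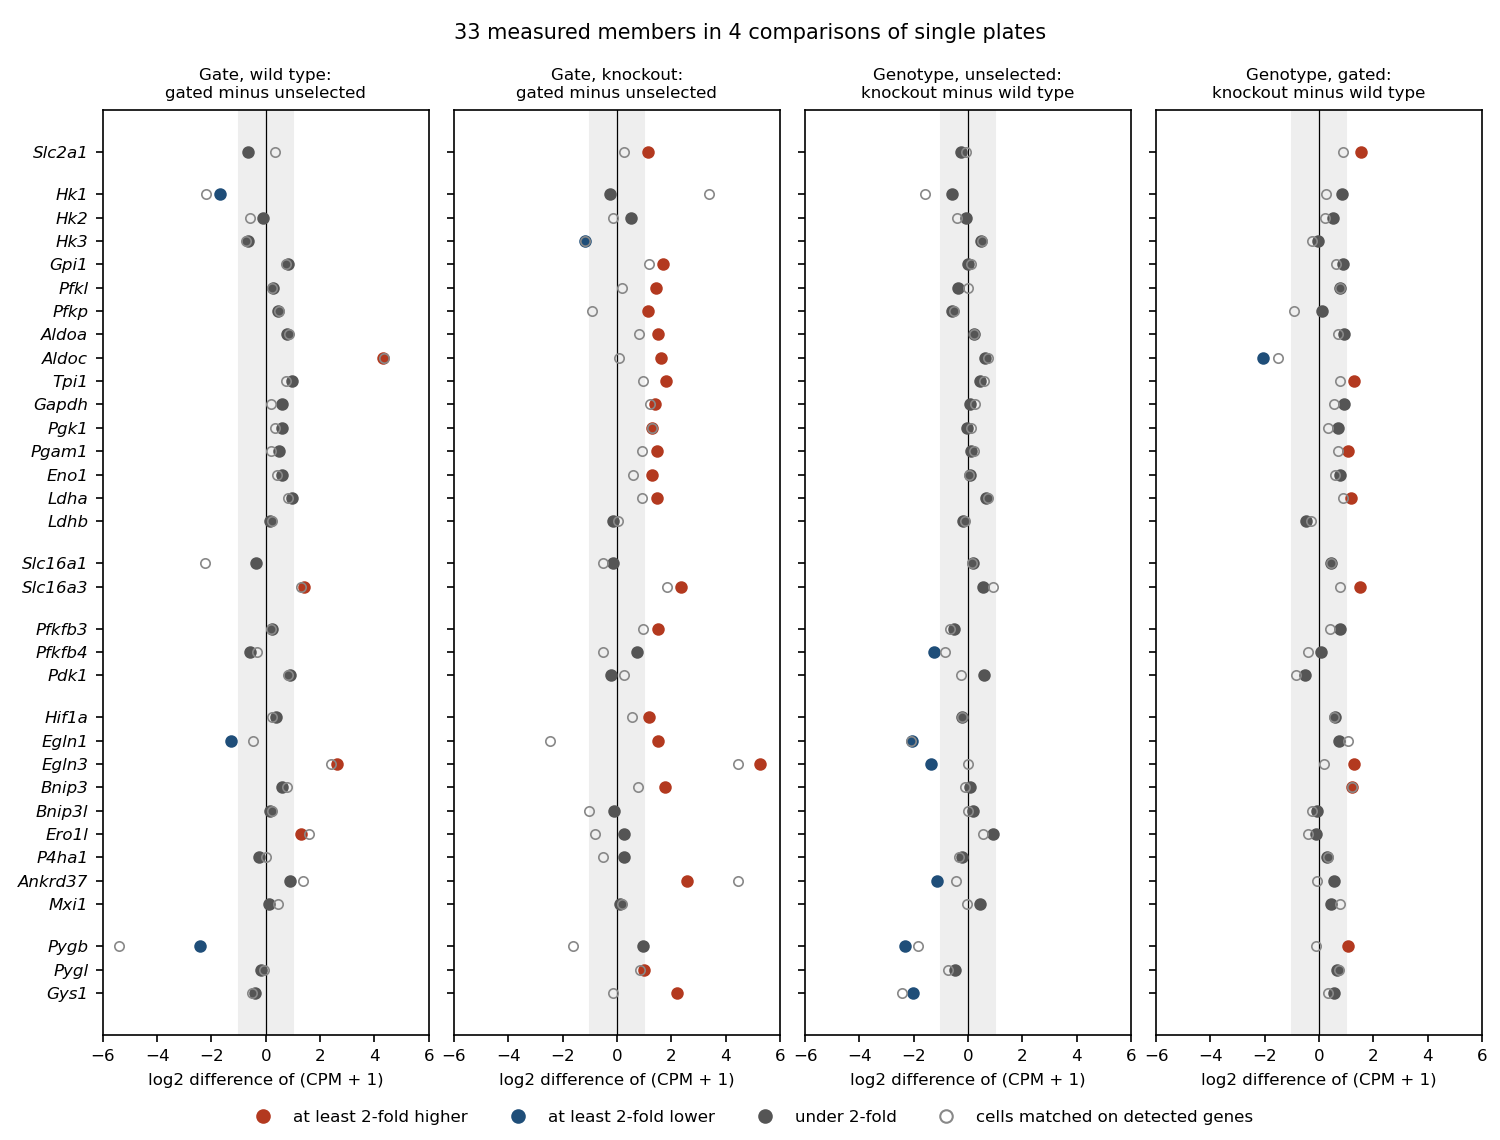
Log2 difference of (CPM + 1) of the 33 measured members, grouped by role, in the 4 comparisons of single plates. Filled points are the plates' summed levels, coloured where they differ at least 2-fold in the direction of the mean per cell, open circles are cells matched on detected genes, and the grey band marks differences under 2-fold. In the knockout gate 21 filled points are coloured as higher and 1 as lower.

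At glucose uptake and the hexokinase step, the order of the plates was not that of the later steps. Slc2a1, the basal glucose transporter, was at 80.9 CPM without and 50.5 CPM with the gate in wild-type mice, and 67.3 CPM without and 151 CPM with it in knockout mice. It was thus 2.22-fold higher with the gate in knockout cells (log2 1.15) and had a log2 of -0.67 in wild-type cells. After each cell was thinned to 100000 gene counts, Slc2a1 was detected in 63.2% of knockout gated cells (Clopper-Pearson interval 51.3 to 73.9%) and in 16.7% to 23.1% of the other groups. With the mean per cell its gate difference in the knockout was 0.91, and with matched cells it was 0.27.

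Hexokinases trap glucose in the cell by phosphorylation, and 0 of the 3 measured here was at least 2-fold higher in any comparison of whole plates. Hk2, the inducible form, was at 80.03, 74.9, 75.1 and 107 CPM. Hk3, the form typical of myeloid cells, was at 175.5, 110.3, 243 and 106.5 CPM in the same order, which made it the 1 member lower with the gate in knockout cells (2.27-fold, log2 -1.18). This call did not hold under TMM or median-of-ratios factors, and spike-in scaling turned its log2 to 0.14, against an all-gene median of 1.04 under that scaling. Hk1, the housekeeping form bound to mitochondria, was at 23.3, 6.62, 15.3 and 12.6 CPM and was 3.18-fold lower with the gate in wild-type cells. It was detected in only 4.44% to 14.5% of thinned cells, and in matched cells its log2 with the gate in the knockout was 3.41 in place of -0.26.

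From phosphoglucose isomerase to lactate dehydrogenase, every step represented among the members had a gene at least 2-fold higher in knockout gated than in knockout unselected cells. Gpi1, the isomerase, was at 209.9 CPM without and 371 CPM with the gate in wild-type mice, and 208.5 CPM without and 687 CPM (interval 679.8 to 694 CPM) with it in knockout mice. Its level was 3.29-fold higher with the gate in the knockout, and 1.76-fold in the wild type, with log2 values of 1.167 and 0.73 in matched cells. It was detected in 97.4% of thinned knockout gated cells and in 42.2% of thinned knockout unselected cells.

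Pfkl, the main phosphofructokinase of these cells and the committed step of glycolysis, was at 135, 164, 103 and 280 CPM, which is 2.69-fold higher with the gate in the knockout. In matched cells its log2 was 0.20 in place of 1.43. Pfkp, another phosphofructokinase, lay between 7.80 and 18.3 CPM. All of its wild-type unselected counts were in 1 cell, and its log2 of 1.13 in the knockout gate turned to -0.91 in matched cells. Pfkm, the muscle form, was below the measured level at 1.51 to 6.96 CPM.

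Aldoa, the main aldolase, was at 525, 909, 611 and 1732 CPM (1721 to 1744 CPM in knockout gated cells). Tpi1, triosephosphate isomerase, was at 186, 360, 254 and 883 CPM. In the knockout they were, with the gate, 2.83-fold and 3.47-fold higher, and Tpi1 was also 2.45-fold higher in knockout gated than in wild-type gated cells. In matched cells none of these 3 differences reached 2-fold, with log2 values of 0.83 for Aldoa, 0.97 for Tpi1 and 0.77 for Tpi1 between genotypes. Per cell, the median level of Tpi1 was 854 CPM in knockout gated cells and 0 in knockout unselected cells, where fewer than 50% of thinned cells (43.3%) had a count.

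Aldoc, the aldolase best known from brain astrocytes, behaved as a rare signal. In wild-type mice it had 0 counts without the gate and 18.8 CPM with it, and in knockout mice it was at 0.545 CPM without and 3.78 CPM with it. The gate difference in wild-type cells was 19.8-fold on the scale of CPM + 1, and 244-fold with 3 counts over the group put in place of 0. Neither value is a lower limit, since amplified reads are not independent molecules. Yet 61.7% of the wild-type gated counts lay in 1 cell, and only 5 of 90 thinned cells had any, against 0 of 78, which allows a share of up to 4.62%. Without the highest cell of each group Aldoc fell under the measured level. With all cells it passed that level only through wild-type gated cells, which favoured its call there. Of 6 astrocyte markers, 5 (Gfap, Aqp4, Slc1a2, Aldh1l1 and Gja1) were at 0 in wild-type unselected cells, and 1 (Gfap) in wild-type gated cells, so that 4 of them had counts there and none without the gate. Slc1a3 made up 41.01 of the 49.8 CPM of astrocyte markers in wild-type gated cells, and was at 41.7 CPM in wild-type unselected cells. In knockout gated cells 0 of the 6 markers were at 0, and they summed to 25.15 CPM. The part of such RNA in the Aldoc counts was not tested.

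Gapdh, which oxidises glyceraldehyde phosphate and often serves as a reference gene, was at 324, 492, 345 and 923 CPM. It was therefore 2.67-fold higher in knockout gated than in knockout unselected cells (log2 1.42), and 1.52-fold higher with the gate in the wild type. In matched cells the knockout difference was 1.23, and under every scaling tried it was at or above 1.39 (1.69 with TMM factors, against an all-gene median of -0.00). Gapdh was detected in 100.0% of thinned knockout gated cells.

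At the remaining steps knockout gated cells were again highest and wild-type gated cells next. Pgk1, phosphoglycerate kinase, was at 65.97, 99.5, 64.6 and 162 CPM, 2.48-fold higher with the gate in the knockout. Pgam1, phosphoglycerate mutase, was at 33.8, 48.1, 36.4 and 103 CPM, 2.78-fold higher. Eno1, enolase, was at 27.1, 41.5, 28.5 and 71.5 CPM, 2.46-fold higher. In matched cells the log2 values of this comparison were 1.29, 0.93 and 0.59. Knockout gated cells stood above the other 3 plates for all 3 genes, and the unselected plates of the 2 genotypes lay close together. Eno2, the neuronal enolase, had 0 counts in both unselected plates and 1.82 and 1.88 CPM in the gated ones, with over 90% of these counts in 1 cell of each (98.0% and 91.6%).

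Pyruvate kinase is no member of the set but belongs to the other genes of glycolysis counted below. It was named here afterwards, outside the rule for examples, because it completes the chain. It is listed under the older symbol Pkm2, for the whole gene and not for an isoform, and it was at 757.5 CPM in wild-type unselected cells and at 1261, 849.9 and 2424 CPM in the others in the order above, with a log2 of 1.51 for the gate in the knockout and 0.73 in the wild type.

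The balance of the lactate dehydrogenase genes differed between plates. Ldha, the form that favours lactate production, was at 474 CPM without and 938 CPM with the gate in wild-type mice, and 761 CPM without and 2120 CPM with it in knockout mice. It was 2.78-fold higher with the gate in the knockout, 1.98-fold in the wild type, and 2.26-fold higher in knockout gated than in wild-type gated cells. In matched cells the log2 values of these comparisons were 0.94, 0.81 and 0.87. Ldhb, the form of oxidative tissues, was at 417, 469, 370.4 and 338 CPM, so that its log2 differences stayed between -0.47 and 0.17. Per kilobase of transcript, Ldha made up 45.7% of the pair without and 59.6% with the gate in wild-type mice, and 60.3% without and 82.3% with it in knockout mice. No scaling between plates can change this share. By mean per cell, in thinned cells and without the highest cell it lay at 45.2% to 45.9%, 58.9% to 58.98%, 59.7% to 59.8% and 81.1% to 82.5% in the same order, and with the length of all exons at 35.1%, 48.7%, 49.4% and 74.9%.

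**Figure D2:**
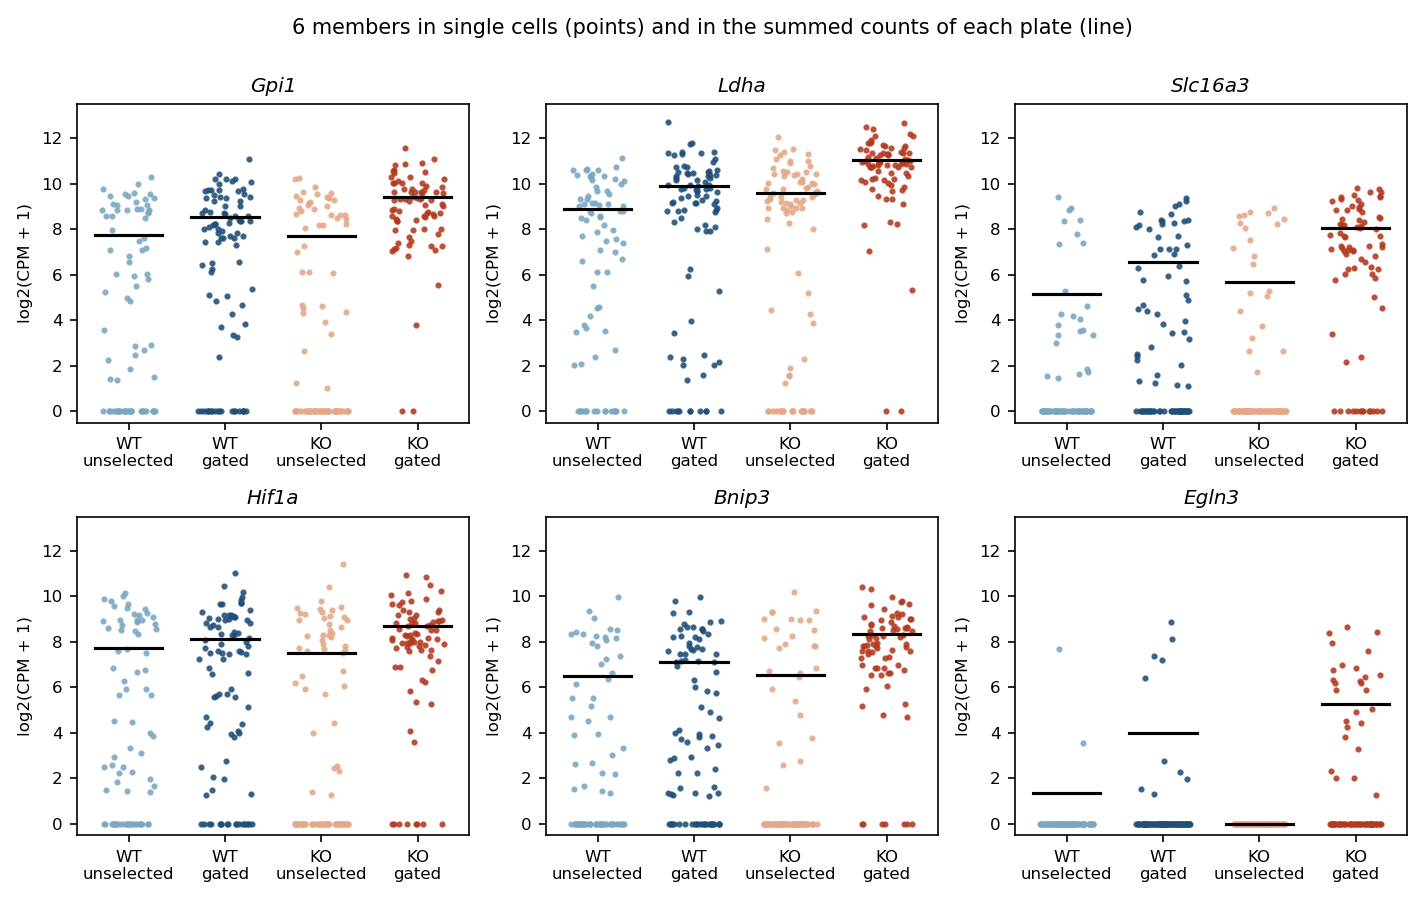
Level of 6 members as log2(CPM + 1) in each cell (points, spread sideways at random) of the wild-type (WT) and knockout (KO) plates, with a black line for the level of the plate's summed counts. Knockout gated cells show few points at 0 for Gpi1, Ldha and Bnip3, where 97.4%, 97.4% and 90.8% of thinned cells had a count, and Egln3 is at 0 in all 90 knockout unselected cells.

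Lactate transport divided in the same way. Slc16a3, the lactate exporter MCT4 of glycolytic cells, was at 34.2 CPM (32.3 to 36.04 CPM) without and 92.2 CPM (89.7 to 94.8 CPM) with the gate in wild-type mice, and 50.4 CPM (48.5 to 52.2 CPM) without and 264 CPM (259.9 to 269 CPM) with it in knockout mice. It was 2.65-fold higher with the gate in the wild type and 5.17-fold in the knockout, and 2.85-fold higher in knockout gated than in wild-type gated cells. Both gate differences held in matched cells, at log2 1.28 and 1.84, and in all 11 alternatives of scaling, pseudocount and cell choice. The genotype difference of gated cells was 0.77 in matched cells. Slc16a1, the more widely expressed transporter MCT1, was at 27.1, 20.6, 30.9 and 28.01 CPM, and 55.8% of its wild-type unselected counts were in 1 cell. Per kilobase, Slc16a3 made up 56.3% of the pair without and 82.03% with the gate in wild-type mice, and 62.5% without and 90.6% with it in knockout mice.

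Of the regulators of flux, Pfkfb3, which makes the strongest activator of phosphofructokinase, was at 49.3, 57.5, 34.1 and 99.7 CPM. It was 2.87-fold higher with the gate in the knockout (log2 0.96 in matched cells). Pfkfb4, its relative with more phosphatase activity, was at 68.8, 45.3, 28.5 and 47.9 CPM and was 2.36-fold lower in knockout than in wild-type unselected cells, a log2 that was -0.84 in matched cells. Pdk1, which shuts pyruvate out of the mitochondrion by inhibiting pyruvate dehydrogenase and is a known target of Hif1a, was at 60.4, 112, 91.1 and 78.6 CPM and stayed under 2-fold in all 4 comparisons. In knockout unselected cells 30.0% of the Pdk1 counts were in 1 cell.

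The oxygen-response genes did not move as 1 group. With the gate in knockout cells, Hif1a, Egln1, Egln3, Bnip3 and Ankrd37 were at least 2-fold higher, while Bnip3l, Ero1l, P4ha1 and Mxi1 had log2 values of -0.12, 0.26, 0.26 and 0.13. In matched cells the median of the 9 genes measured in whole plates was 0.18 in place of 1.20, and that of the same 15 enzymes was 0.83 in place of 1.42. With the gate in wild-type cells, Egln3 and Ero1l were higher and Egln1 lower, and the medians were 0.38 for oxygen-response genes and 0.59 for enzymes.

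Egln3, the prolyl hydroxylase most strongly induced by low oxygen in many cell types, had the largest gate difference of all members in the knockout. It was at 1.54 CPM without and 14.6 CPM with the gate in wild-type mice, and 0 CPM without and 37.4 CPM (35.8 to 39.2 CPM) with it in knockout mice. The gate difference in the knockout was 38.4-fold on the scale of CPM + 1, and 710.0-fold with 3 counts over the group put in place of 0. Neither value is a lower limit, since amplified reads are not independent molecules and 1 further cell with counts could lower it. Egln3 was detected in 21 of 76 thinned knockout gated cells, or 27.6% (18.0 to 39.1%), and in 0 of 90 knockout unselected cells, which allows a share of up to 4.02%. The share was 6.67% (2.49 to 13.95%) in wild-type cells with the gate. One cell held 90.0% of the wild-type unselected counts and 37.6% of the wild-type gated counts. The difference between gated plates was 2.46-fold, with a log2 of 0.17 in matched cells. 

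Egln1, the main prolyl hydroxylase at normal oxygen, was near the limit of measurement, at 11.6, 4.19, 1.99 and 7.57 CPM. It passed the level filter only through wild-type unselected cells, which favoured its lower calls against that plate. It was detected in at most 10.5% of thinned cells, and 92.9% of its knockout unselected counts were in 1 cell. Its log2 of 1.52 in the knockout gate turned to -2.47 in matched cells. The share of Egln3 in the pair was 15.2%, 82.5%, 0% and 86.98%, and the wild-type unselected share was 2.90% without the highest cell.

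Hif1a was at 209.3 CPM without and 272 CPM with the gate in wild-type mice, and 178.5 CPM without and 410.2 CPM with it in knockout mice. It was 2.29-fold higher with the gate in the knockout (log2 1.20, and 0.54 in matched cells) and 1.30-fold in the wild type. Bnip3, a receptor for the removal of mitochondria, was at 89.1, 137, 92.6 and 321 CPM. It was 3.44-fold higher with the gate in the knockout (log2 1.78, and 0.77 in matched cells) and 2.33-fold higher in knockout gated than in wild-type gated cells. The latter difference was the only one of the 8 higher members between gated plates that was kept in all 11 of these alternatives, with log2 values from 1.20 to 1.60. Its relative Bnip3l, with a like role, was at 80.8, 90.1, 92.5 and 84.8 CPM. Bnip3 thus made up 67.0% of the pair per kilobase without and 73.7% with the gate in wild-type mice, and 64.9% without and 87.5% with it in knockout mice.

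Ankrd37, a small ankyrin repeat protein induced by low oxygen, was at 4.95, 10.0, 1.69 and 15.1 CPM, and all of its knockout unselected counts were in 1 cell. It was 6.00-fold higher with the gate in the knockout, and its log2 of 2.58 was 4.48 in matched cells. Ero1l, an oxidase of the endoplasmic reticulum, was at 11.6, 29.7, 22.7 and 27.4 CPM, which is 2.44-fold higher with the gate in the wild type (log2 0.96 with all deposited cells). P4ha1, which hydroxylates collagen, lay between 162 and 197 CPM in every group, and Mxi1, an antagonist of Myc, between 41.1 and 61.5 CPM. Ndrg1 had 0 counts in all 334 cells, and Vegfa, the angiogenic factor often used as a readout of low oxygen, had 0 counts in both wild-type plates and at most 0.337 CPM in the knockout ones.

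**Figure D3:**
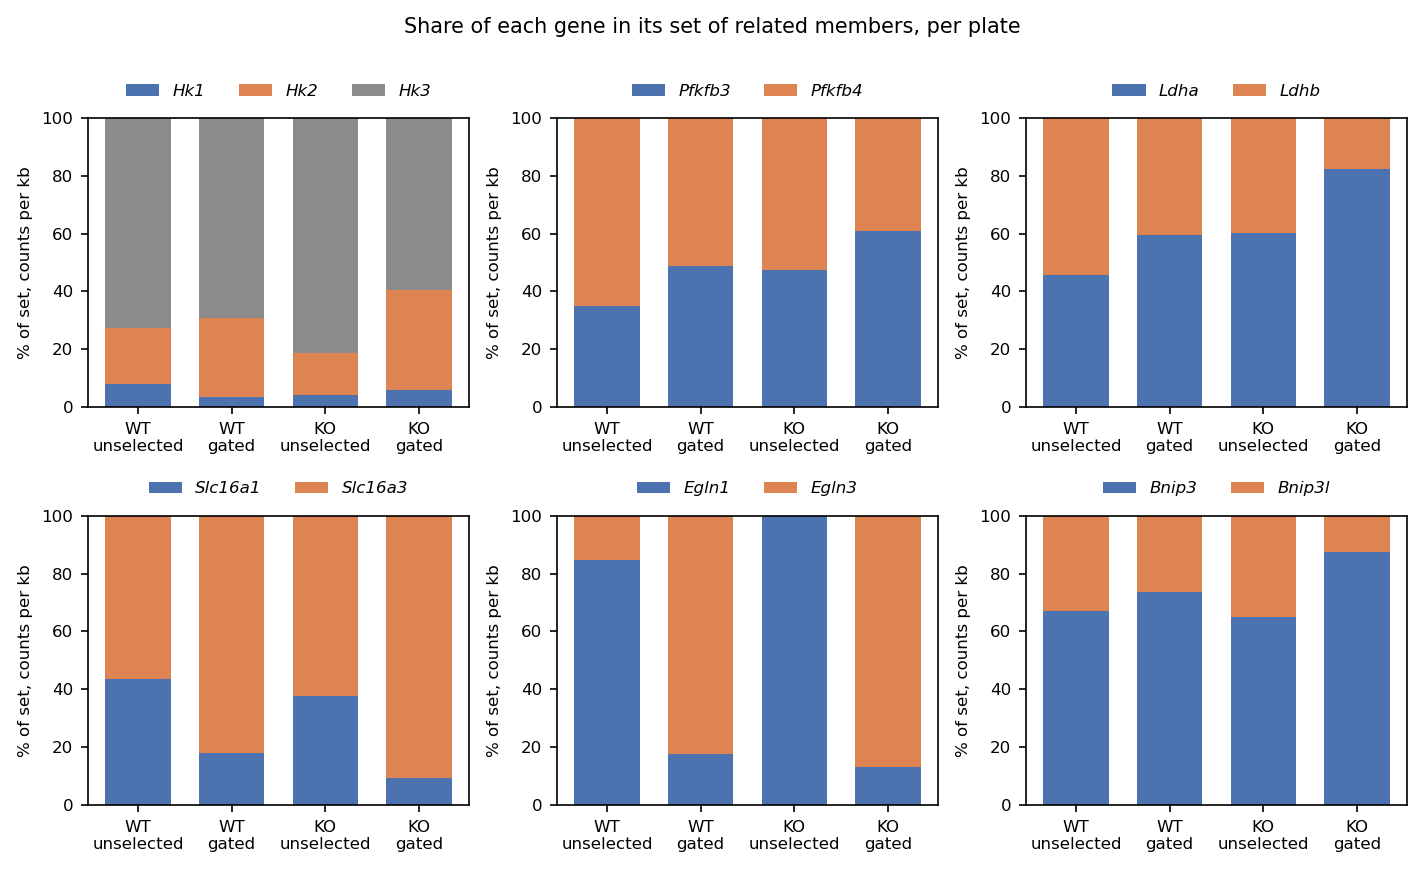
Share of each gene in 6 sets of related members, in percent of the set's counts per kilobase of the principal transcript, for the wild-type (WT) and knockout (KO) plates. Ldha makes up 45.7% of its pair in wild-type unselected and 82.3% in knockout gated cells, and Egln3 makes up over 80% of its pair only in the gated plates (82.5% and 86.98%).

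Glycogen, the store of glucose, is broken down by phosphorylases and built by glycogen synthase. Pygl, the liver form also used by myeloid cells, was at 98.2, 87.7, 69.5 and 140.4 CPM, at the edge of 2-fold (2.00-fold) with the gate in the knockout (log2 0.86 in matched cells) and detected there in 73.7% of thinned cells against 16.7%. Pygb, the brain form, was at 78.7, 13.8, 14.8 and 30.0 CPM. It was 5.38-fold lower with the gate in the wild type and 5.04-fold lower in knockout than in wild-type unselected cells, so that the wild-type unselected plate stood above the other 3. Gys1, glycogen synthase, was at 28.5, 21.6, 6.20 and 32.4 CPM, and the knockout unselected plate stood below the others. Its log2 of 2.21 in the knockout gate turned to -0.15 in matched cells. Gys1 was detected in at most 15.8% of thinned cells.

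In unselected cells, none of the 15 measured enzymes was at least 2-fold apart, with a median log2 of 0.07, and no test was possible. The largest difference among them was that of Ldha, with a log2 of 0.68. The 6 members lower in the knockout were Pfkfb4, Egln1, Egln3, Ankrd37, Pygb and Gys1. Of these, Egln1, Egln3, Ankrd37 and Gys1 were detected in at most 10.3% of thinned cells of either plate, and the Egln3 difference rests on 1 wild-type cell. Egln1 passed the level filter only through the wild-type plate, which favoured its call here.

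In gated cells the enzymes had a median log2 of 0.77 in favour of the knockout, and Slc2a1, Tpi1, Pgam1, Ldha, Slc16a3, Egln3, Bnip3 and Pygb were at least 2-fold higher. Slc2a1 was 2.94-fold higher (log2 0.87 in matched cells), and Pygb, at 2.09-fold, turned to a log2 of -0.10 in matched cells. Aldoc was lower, on the rare counts described above. The gate comparisons of the 2 genotypes share no plate, and the log2 of the gate was more positive in the knockout for 26 of 33 measured members, or 78.8%, against 46.8% of all measured genes. The median of the log2 in the knockout minus that in the wild type was 0.82 for members and -0.08 for all genes. In matched cells it was more positive for 18 of the same 33 members, or 54.5%, against 47.1% of all genes, with medians of 0.19 and -0.09. These differences were not tested.

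In sum over the 17 enzymes, glycolytic RNA took up 0.269% of gene counts without and 0.413% with the gate in wild-type mice, and 0.313% without and 0.755% with it in knockout mice. The 11 oxygen-response genes took up 0.0641%, 0.0765%, 0.0611% and 0.116%. Per cell, the enzymes' share had a median of 0.699% in knockout gated cells (0.113% to 1.52%) and of 0.251% in knockout unselected cells (0.00447% to 1.06%), so that the ranges of the plates overlapped. Thinned cells had a median of 8, 9, 6.5 and 12 of the 17 enzymes detected and of 2, 3, 2 and 5 of the 11 oxygen-response genes.

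The enzymes and the oxygen-response genes were also compared cell by cell, as the mean log2(CPM + 1) of each list in thinned cells. The median enzyme score was 3.37, 4.08, 2.84 and 5.63, and the median oxygen-response score was 1.57, 1.90, 1.46 and 3.24. Within plates, Pearson's r between the scores was 0.41 over 78 cells without and 0.62 over 90 cells with the gate in wild-type mice, and 0.61 over 90 cells without and 0.61 over 76 cells with it in knockout mice. Cells of a plate share its library preparation and differ in detected genes, and each score had an r of 0.51 to 0.70 with the number of detected genes. Once both scores were taken as residuals on detected genes, r was 0.09, 0.38, 0.25 and 0.38. With the log2 of the summed CPM of each list, r was -0.11, 0.24, 0.14 and 0.58. Single oxygen-response genes were compared with the enzyme residual only where at least 25% of a plate's thinned cells had a count. Genes below that share, Egln1 among them, were left out. Spearman's rho was -0.11 to 0.35, and the highest values were those of P4ha1 in knockout gated cells (0.35) and Bnip3 in wild-type gated cells (0.32). These are descriptions with no test.

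**Figure D4:**
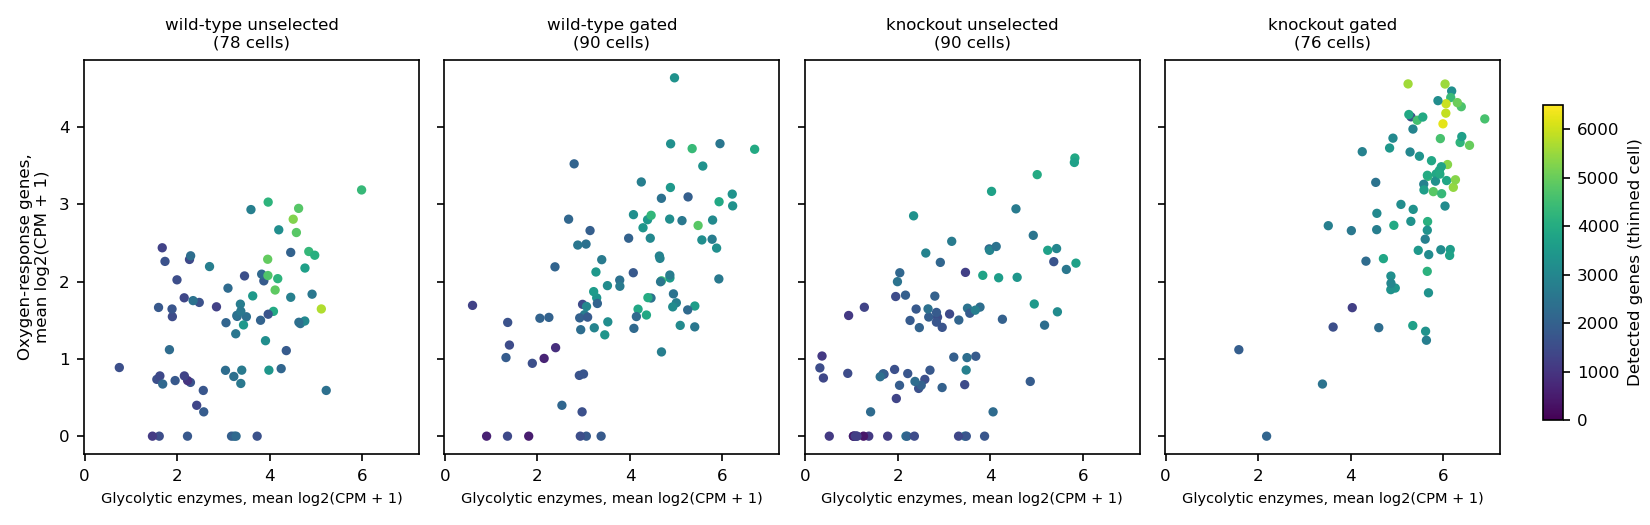
Mean log2(CPM + 1) of the 17 glycolytic enzymes (x axis) and of the 11 oxygen-response genes (y axis) in each thinned cell of the 4 plates, coloured by the number of detected genes. Medians of the enzyme score are 3.37, 4.08, 2.84 and 5.63 from left to right, and cells with more detected genes lie towards the upper right.

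Other genes of these pathways were counted by the same rule, beside shares of all genes of 12.8% higher and 18.8% lower with the gate in the wild type, and 10.5% and 20.3% in the knockout. Of 18 measured other oxygen-response genes, 5 were higher and 1 lower with the gate in each genotype, with median log2 values of 0.51 in the wild type and 0.06 in the knockout. Bhlhe40 and P4ha2 are among the 5 in both genotypes and passed the level filter only through knockout gated cells, which favoured their calls in the knockout. P4ha2, which like P4ha1 hydroxylates collagen, had 0 counts in wild-type unselected cells against 9.95 CPM in wild-type gated cells, and 0.281 against 24.4 CPM in the knockout. Bhlhe40, a transcriptional repressor, had 0 counts in both unselected plates and was at 2.75 and 22.1 CPM in the gated plates. Mif, a cytokine, was 4.00-fold higher with the gate in the knockout, at 288 against 71.2 CPM. Kdm4b, a histone demethylase, was 4.66-fold lower with the gate in the wild type.

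Of 16 measured other genes of glycolysis and sugar transport, 2 were higher and 2 lower with the gate in the wild type, and 3 were higher and 4 lower in the knockout. Pgm2, which feeds sugar phosphates into glycolysis, was 2.69-fold and 3.87-fold higher. Slc2a5, the fructose transporter of microglia, was 2.59-fold and 17.7-fold lower, at 37.2 against 676 CPM in the knockout, which is the direction opposite to that of the glucose transporter Slc2a1 there. Of 7 measured pentose phosphate genes, 0 were at least 2-fold apart in any of the 4 comparisons, with a median of 0.07 for the gate in the knockout. Of 9 measured other glycogen genes, 2 were higher and 0 lower with the gate in the wild type, and 1 was higher and 2 lower in the knockout. Gyg, the glycogenin that primes glycogen synthesis, was 2.59-fold and 2.46-fold higher.

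Some members may share reads with other genes. Transcripts with at least 95% identity over 300 bases or more are annotated in 76 other genes for Gapdh, 4 for Pgk1, 3 each for Eno1, Ldha and Bnip3, and 1 each for Gpi1, Tpi1, Pgam1, Ldhb and Bnip3l. Of these copies only 3 have a row in the table. Gm5506, the copy of Eno1, was at 4.52, 6.94, 5.61 and 12.2 CPM and so had the order of groups seen for Eno1, and the pair of Gapdh copies stayed at or below 0.211 CPM. Exons of Hk3, Pfkm, Pfkp, Aldoa, Tpi1, Gapdh, Ankrd37 and Gys1 overlap those of another gene in the table, and reads of such partners cannot be told apart where counting did not use strand.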

How the data were processed

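The authors deposited 1 table of raw read counts per gene for single cells, with 92 spike-in RNAs (ERCC). Per the submitters' processing notes, STAR 2.5.3a, Trim Galore 0.4.3, HTSeq and Picard were used on mm10. Annotation and strand setting were not given in the sources used here. Rows include 0 mitochondrial genes, and 0 rows name no gene. Spike-ins, 3.56% of the counts of passing cells, stayed out of library sizes.

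Groups and quality calls came from the labels. The 35 cells that failed any of the 3 criteria were left out, and doublets were not searched for, since 1 cell was sorted per well. Counts were summed per plate and scaled to CPM, and differences are log2 of (CPM + 1), which understates those of low genes. Shares of cells used cells thinned to 100000 gene counts, a depth all passing cells had. Levels per kilobase used the longest principal transcript of GENCODE M21 (same build). Promoter windows came from RefSeq, with no entry used for Bnip3l and Ndrg1. Computations used Python 3.11.15, numpy 2.4.6, pandas 2.3.3 and scipy 1.17.1, and the scripts were tested on simulated data.

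All 37 members are named, with up to 3 examples per further list, chosen by size among genes at least 2-fold apart. Pyruvate kinase was named outside this rule. The members and lists were chosen with earlier results of these data known. Of 195 listed symbols 193 were matched, 6 by an older symbol. Alternatives were mean CPM per cell, TMM factors (edgeR 4.0.16), median-of-ratios factors (DESeq2 1.42.0), spike-in scaling, other filters, pseudocounts and fold thresholds, removal of each gene's highest cell, thinned cells, cells matched on detected genes in bins of 250 with equal numbers drawn per bin, all deposited cells, and removal of cells with counts of 2 or more of 5 border macrophage markers (Mrc1, Cd163, Lyve1, Cbr2 and Cd209f). Exon lengths over all transcripts were added after the data were seen.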

Additional observations from a re-analysis of the deposited data

Results flagged for a closer look

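Egln1 differed with the gate in opposite directions in the 2 genotypes. It was 2.43-fold lower in wild-type cells (log2 -1.28) and 2.87-fold higher in knockout cells (log2 1.52). The difference of 2.80 between them was not tested. Egln1 passed the level filter only through wild-type unselected cells, with a mean of 4.58 CPM over the other 3 groups. This favoured a lower value with the gate in the wild type. Egln1 was detected in at most 10.5% of thinned cells of any plate, and matching on detected genes gave -0.46 and -2.47.

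The genotype difference of Egln3 was -1.34 in unselected and 1.30 in gated cells, 2.64 apart, and was not tested. The unselected value rests on 1 cell with 90.0% of the wild-type counts.

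The genotype difference of Pygb was -2.33 in unselected and 1.07 in gated cells, 3.40 apart, and was not tested either. Pygb was detected in 26.9%, 11.11%, 4.44% and 27.6% of thinned cells in the order wild type without and with the gate, knockout without and with it.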

How the results depend on the processing

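With 1 plate a group, leaving out replicates was not possible, intervals cover counting error only, and genes seen in few cells rest on those cells. No paired analysis was possible because each group is 1 sample and its number is only an order of accession. The counts of higher and lower members and the medians of enzymes and oxygen-response genes in the 4 comparisons gave 240 values under other settings. Of these, 204 were labelled as the same as in the main setting, a label that leaves room for large changes. For the gate in knockout cells, the oxygen-response median over the same 9 genes was 1.20 in whole plates and 0.18 in matched cells. Changes in oxygen-response medians are not listed below. The cause of the changes was not tested. Shares in parentheses are those of all genes past the same limit.

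For the gate in wild-type cells, the 4 higher members (12.8%) became 8 with TMM factors (15.8%), 8 with median-of-ratios factors (15.3%), 15 with spike-in scaling (22.5%), 2 at a level of 20 CPM (8.21%), 14 at 1.5-fold (20.97%) and 2 at 3-fold (6.80%). The 3 lower members (18.8%) became 1 at 20 CPM (14.2%) and 6 at 1.5-fold (31.01%). The enzyme median of 0.59 became 1.05 with spike-ins.

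For the gate in knockout cells, the 21 higher members (10.5%) became 7 in matched cells (16.1%), 8 at 3-fold (5.24%) and 31 with spike-ins (51.6%). The 1 lower member (20.3%) became 0 with TMM (13.8%), median-of-ratios (14.2%) and spike-in scaling (2.93%) and at 3-fold (8.59%), and 4 in matched cells (26.8%). The enzyme median of 1.42 became 0.83 over the same 15 genes in matched cells (0.88 over the 14 measured there), 1.69 with TMM factors, 1.66 with median-of-ratios factors and 2.61 with spike-ins. Hk3 turned to 0.14 with spike-ins, and in matched cells Pfkp turned to -0.91, Egln1 to -2.47 and Gys1 to -0.15.

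Between genotypes in unselected cells, the 0 higher members (13.9%) became 1 with spike-ins (7.74%), with no level filter (9.73%), with a pseudocount of 0.1 CPM (15.2%), without the highest cell (16.6%), in thinned cells (14.5%) and without cells with border macrophage markers (14.4%), and 4 at 1.5-fold (24.5%). The 6 lower members (11.5%) became 3 at 20 CPM (6.17%) and at 3-fold (5.44%), and the enzyme median of 0.07 became -0.40 with spike-ins. In gated cells, the 8 higher members (9.69%) became 18 with spike-ins (18.5%), 1 in matched cells (13.4%), 19 at 1.5-fold (19.8%) and 0 at 3-fold (4.46%). The 1 lower member (10.3%) became 0 at 20 CPM (6.20%) and without the highest cell (7.90%). The enzyme median of 0.77 became 1.15 with spike-ins, and Pygb turned to -0.10 in matched cells.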
